A study of Mus musculus with 132 samples.

Results

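The RUNX transcription factors Runx1, Runx2 and Runx3, their shared subunit Cbfb and the ETO family of corepressors, Cbfa2t2, Cbfa2t3 and Runx1t1, were followed through differentiation of mouse embryonic stem cells (mESCs) into hematopoietic progenitor cells (HPCs). These 7 genes were chosen by family name, but with earlier results of these data known. They are part of 25146 genes in a table of poly(A)-minus RNA-seq counts, an assay that also captures unprocessed nascent transcripts. The study deleted single CTCF binding sites next to the promoters of Runx1 and asked how this changed chromatin and gene expression during differentiation. For Runx1 itself only the values that relate it to its paralogs, its partner and the corepressors are given.

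All 23 libraries derive from the mESC line E14-TG2a, and those of the later stages from cells differentiated in culture and sorted on surface markers, Flk1 for mesoderm and CD41 for HPCs. Undifferentiated wild-type mESCs (day 0) gave 2 libraries, labelled technical replicates of a single culture. Wild-type Flk1+ mesoderm (day 4) came from the 3 clones C6.1, C8.1 and B9.3, and wild-type CD41+ HPCs (day 7) from the same clones, with a further library of B9.3, B9.3-2. P1-CTCF-KO clones E7.1, E7.2 and E9.1 lack the CTCF site upstream of the distal P1 promoter of Runx1 and gave 3 mesoderm and 3 HPC libraries. P2-CTCF-KO clones D2.1, D10.1 and E9.1, which lack the site upstream of the proximal P2 promoter, gave 3 mesoderm libraries and 5 HPC libraries, with a further library each of D2.1 and D10.1 (D2.1-2, D10.1-2). The E9.1 clones of the knockout genotypes are different clones. Clones are separate lines of the same parent, so p-values measure the spread between clones and repeat samples of 1 parental line. The paper derives its P1-CTCF-KO sub-clones from 2 targeting events, so the 3 P1-CTCF-KO clones stand for at most 2 events. Positions of open chromatin (ATAC-seq) were available for wild-type mesoderm and HPCs and of CTCF (ChIP-seq) for 416B, a mouse myeloid progenitor line.

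RUNX proteins bind DNA through a shared Runt domain, and Cbfb, which does not itself contact DNA, stabilises that binding. Runx1 is required for the emergence of blood progenitors from hemogenic endothelium, Runx2 is the regulator of bone formation, and Runx3 acts in lymphocytes, neurons and other tissues. ETO proteins do not recognise DNA by themselves. They join factors such as Tal1, E proteins and Gfi1b and bring NCoR and histone deacetylases, and Cbfa2t3 (Eto2) is the member known from Tal1 complexes in erythroid and megakaryocytic progenitors.

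Counts per library summed to 7805102 to 24406998, of which 68.1% to 91.0% lay in ribosomal RNA or in entries listed at several loci, so 878966 to 7748566 counts lay in all other genes. At this depth Runx2 had 0 to 59 counts per library and Runx3 0 to 38, and their values carry a wide counting error. Levels are given as CPM, the counts scaled to a common library total, after TMM normalization of all 23 libraries. The 6 pluripotency markers summed to 36.8 to 39.5 CPM in mESCs, 1.21 to 4.2 CPM in mesoderm and at most 2.02 CPM in HPCs, whereas 6 hematopoietic progenitor markers reached 31 to 108 CPM in HPCs. The P2-CTCF-KO HPC library D2.1 stood apart, with 19.8 CPM of mesoderm markers against 4.01 to 10.6 CPM in the other libraries of its group and 18.7 CPM of erythroid markers against 47.7 to 108 CPM. D10.1 of the same group also stood apart, with 244 CPM of megakaryocyte markers against 24.8 to 47.8 CPM and 108 CPM of hematopoietic progenitor markers against 31 to 40.5 CPM.

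Among the RUNX genes, Runx1 rose at both steps of wild-type differentiation and Runx2 and Runx3 stayed far below it. A gene was called changed at a Benjamini-Hochberg adjusted p under 0.05 in edgeR's quasi-likelihood test with an absolute log2 fold change over 1. From mESCs to mesoderm 4 of the 7 genes were called, all higher, where 24.4% of all 12899 genes tested were called. The mESC libraries repeat 1 culture, so p-values against them rest mostly on the spread of the later stages. With these libraries summed into 1 sample, 2 of the 7 genes (Runx1 and Cbfa2t3) and 1443 rather than 3146 of all genes were called. In the next step, to HPCs, 4 of 7 were called, 3 of them higher and 1 lower, where 23.3% of the genes were called. Both shares of the 7 genes exceed those of all genes, but 7 genes are too few to weigh such a difference, and no set test was run. Undifferentiated mESC RNA was depleted of ribosomal RNA and no depletion is described for the later stages, so the step from mESCs also compares library preparations.

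Runx1 was at 0.895 and 0.598 CPM in the mESC libraries and at 12.6, 15.5 and 4.01 CPM in wild-type mesoderm of C6.1, C8.1 and B9.3. In wild-type HPCs it reached 86.7, 135, 93.1 and 75.1 CPM in C6.1, C8.1, B9.3 and B9.3-2. No stage overlapped another in CPM, and B9.3 was the lowest mesoderm library. Raw counts of Runx1 were 61 to 164 per mESC library and 69 to 258 in wild-type mesoderm, which overlap. The gap between these stages thus rests on the TMM scaling. The log2 fold changes were 3.82 ± 0.54 (SE, adjusted p = 0.00058 by edgeR) from mESCs to mesoderm and 3.19 ± 0.43 (adjusted p = 0.00026) from mesoderm to HPCs.

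Runx2 had 3 and 1 counts in mESCs and 0, 4 and 4 counts in wild-type mesoderm of C6.1, C8.1 and B9.3. In wild-type HPCs it was at 0.690, 4.58, 1.63 and 1.41 CPM in the clone order given above, with C8.1 the highest. Each HPC library lay above each mesoderm library. Summed counts were 11.6-fold higher in HPCs than in mesoderm (95% exact interval 5.66 to 27.7, counting error only), and the change was called (log2 fold change 3.49 ± 0.76 SE, adjusted p = 0.0052 by edgeR). The step from mESCs to mesoderm was not called (log2 fold change 3.47 ± 1.20, adjusted p = 0.051), but was called by DESeq2 (0.014) and without the mesoderm library of C6.1 (0.042) or the HPC libraries of C6.1 (0.036) or C8.1 (0.017), which share the fit. Runx2 overlaps Supt3, a transcription cofactor gene on the opposite strand. The strand setting of the counting is not given in the sources used here, so reads of the pair cannot be told apart. Supt3 itself stood at 5.12 ± 0.96 CPM (SD, n = 3) in wild-type mesoderm and 7.01 ± 1.14 CPM (n = 4) in HPCs.

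Runx3 was at 0.0764 and 0.137 CPM in mESCs, and at 0, 0.661 and 0.232 CPM in wild-type mesoderm of C6.1, C8.1 and B9.3. The zero in C6.1 is a count of 0, which leaves room for up to 3 counts. In wild-type HPCs Runx3 was at 0.986, 3.17, 0.945 and 0.640 CPM, with C8.1 again the highest and the lowest HPC value just under the highest mesoderm value. The mesoderm to HPC difference was not called (log2 fold change 2.1 ± 0.74 SE, adjusted p = 0.054 by edgeR), but was called with the clone as a block (2.34, adjusted p = 0.0045), with DESeq2 (adjusted p = 0.047) and without the mesoderm library of C8.1 (3.26, adjusted p = 0.036) or the HPC libraries B9.3 (0.038) or B9.3-2 (0.043). The earlier step gave a log2 fold change of 1.70 (adjusted p = 0.18).

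**Figure D1:**
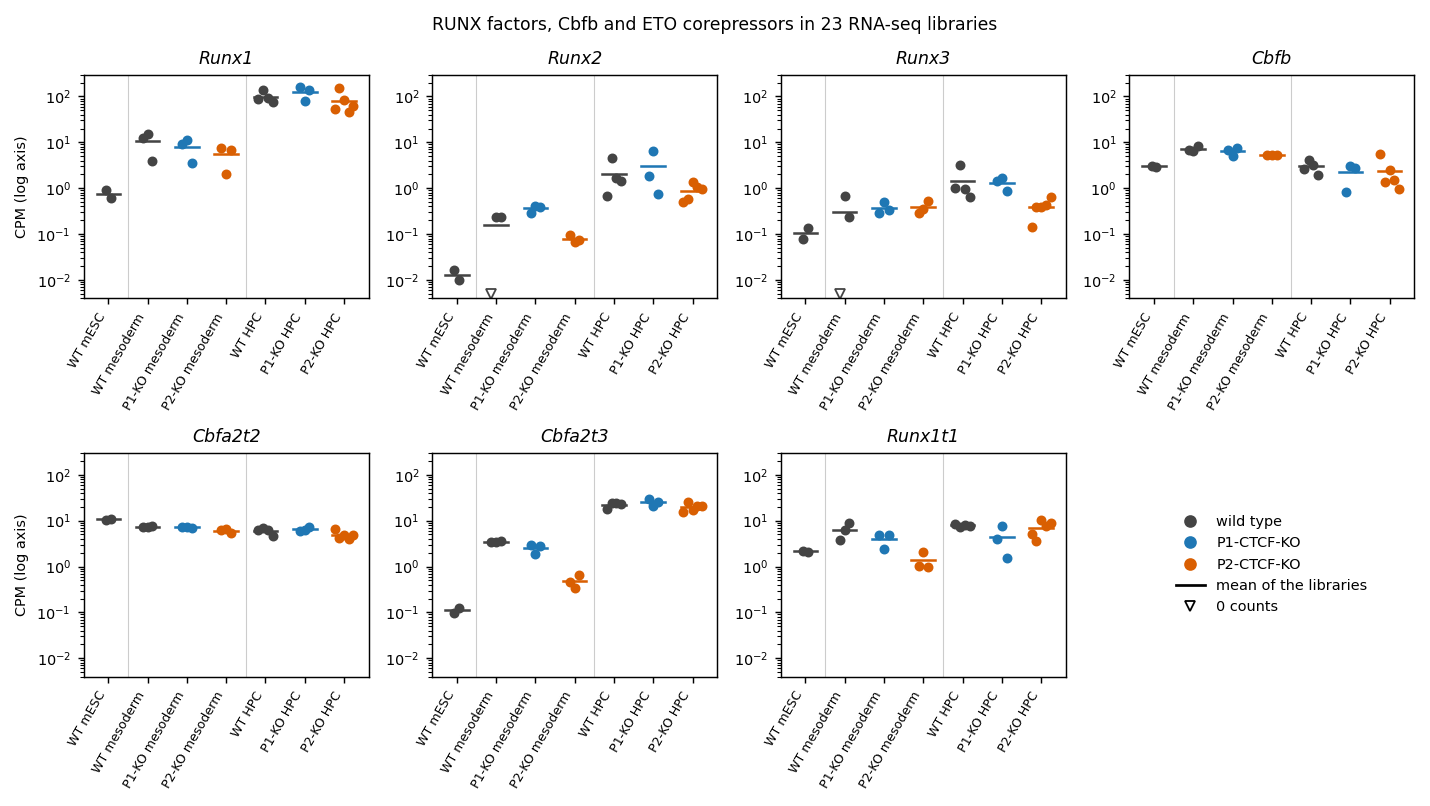
CPM of each of the 7 genes on a log axis, 1 point per library, by genotype and stage, with triangles for libraries with 0 counts. Runx1 and Cbfa2t3 rise at each stage, Cbfb is lower in HPCs than in mesoderm except in the P2-CTCF-KO HPC library D2.1 (5.44 CPM), and the P2-CTCF-KO mesoderm libraries lie lowest among mesoderm for Cbfa2t3 (0.344 to 0.666 CPM) and Runx1t1 (0.963 to 2.07 CPM).

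Within the RUNX family Runx1 held the largest share of the signal in each library, though in some Runx3 came near it. To compare genes, counts were divided by the length of the gene span, since introns were counted too. Per kb of gene, Runx1 held 100%, 84.9% and 78.9% of the RUNX signal in wild-type mesoderm of C6.1, C8.1 and B9.3. In wild-type HPCs it held 95.2%, 89.6%, 95% and 95.6%. The ranges overlapped, and the means differed by 5.94 percentage points (93.9 ± 2.83, n = 4, against 87.9 ± 10.9, n = 3, SD, exact 2-sided permutation p = 0.4). The difference was 12 points without the mesoderm library of C6.1 and 1.42 points without that of B9.3. In these mesoderm libraries the paralogs Runx2 and Runx3 had 0 to 11 counts. In the mESC libraries Runx1 held 74.2% and 52.3%, with 24.8% and 47.1% in Runx3. In P2-CTCF-KO mesoderm of D10.1 Runx1 held 58.8% and Runx3 39.7%.

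The RUNX genes share an arrangement of a distal and a proximal start site, and peaks of CTCF lay within a few kb of a proximal start in each of them. Start sites were taken from the GENCODE vM1 annotation of mm9. In 416B cells CTCF peaks were centred at -2074 bp from the P1 start and -1505 bp from the P2 start of Runx1, where minus means upstream (minus strand, span chr16:92601710-92826319). The Runx3 peak was centred at -1842 bp from the proximal start inside the gene (plus strand, span chr4:134676559-134733905). The Runx2 peaks were centred at 188 bp and -4713 bp from proximal start sites (minus strand, span chr17:44632935-44951746). A CTCF peak lay within 1 kb of a start site for 1 of the 7 genes, Runx2, against 17.5% of 22238 annotated genes, and within 5 kb for 4 of 7, the RUNX genes and Cbfa2t3, against 39.5%. The 200 bases around the centres of 4 of these peaks are given below from mm9, 5′ to 3′ on the strand of the gene, because each of them lies upstream of a RUNX start site, so that they can be set side by side. Capitals mark matches to a core of the CTCF motif, searched on both strands as AGAGGGC or the variant AGATGGC, with the forms AGGGGGC or else AGGTGGC also taken.
Runx1 upstream of P1, chr16:92828286-92828485: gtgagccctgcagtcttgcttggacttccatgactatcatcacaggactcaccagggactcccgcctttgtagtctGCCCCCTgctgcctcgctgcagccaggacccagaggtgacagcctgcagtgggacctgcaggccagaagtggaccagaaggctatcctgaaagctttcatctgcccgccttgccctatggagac
Runx1 upstream of P2, within the gene, chr16:92698979-92699178: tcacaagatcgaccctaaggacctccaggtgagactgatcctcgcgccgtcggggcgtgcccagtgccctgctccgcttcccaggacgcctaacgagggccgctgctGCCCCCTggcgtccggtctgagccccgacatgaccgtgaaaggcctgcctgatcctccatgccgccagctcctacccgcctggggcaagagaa
Runx2 upstream of a proximal start, within the gene, chr17:44878211-44878410: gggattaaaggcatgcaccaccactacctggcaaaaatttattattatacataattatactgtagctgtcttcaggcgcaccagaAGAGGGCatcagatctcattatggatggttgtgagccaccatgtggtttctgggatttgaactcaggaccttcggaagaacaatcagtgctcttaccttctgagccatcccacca
Runx3 upstream of the proximal start, within the gene, chr4:134706470-134706669: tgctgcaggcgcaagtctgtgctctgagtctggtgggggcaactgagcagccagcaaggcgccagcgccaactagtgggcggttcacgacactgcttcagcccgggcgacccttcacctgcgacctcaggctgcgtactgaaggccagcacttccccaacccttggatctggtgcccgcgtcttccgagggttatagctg
Both Runx1 windows and the Runx2 window held 1 match, and the Runx3 window held none of these letters. Over the peaks inside the 7 genes, which leave out the peak upstream of P1, 11 of 22 CTCF windows held a match, against 64.4% of all 44513 CTCF windows. A match is a string and does not show that CTCF bound there.

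Open chromatin at the RUNX paralogs was found mainly in mesoderm. An ATAC peak lay within 1 kb of a start site for all 7 genes in mesoderm, against 60.8% of annotated genes, and for 5 of 7 in HPCs, against 41.3%. The 2 genes without such a peak in HPCs were Runx2 and Runx3. Inside its span Runx3 had 7 ATAC peaks in mesoderm and 0 in HPCs, and Runx2 had 9 and 2, whereas Runx1 had 11 and 7. The mesoderm list is the longer (76766 against 29037 peaks), so a lower number in HPCs is also what the lists as a whole show. Runx3 CPM was higher in HPCs than in mesoderm in each wild-type clone, although the HPC list has no ATAC peak at its starts. For this reason its 200-base mesoderm peak window, centred at -152 bp from the distal start, is printed here, on the plus strand, with capitals for matches to the RUNX motif (TGTGGT or TGCGGT on either strand).
Runx3 upstream of the distal start, chr4:134676316-134676515: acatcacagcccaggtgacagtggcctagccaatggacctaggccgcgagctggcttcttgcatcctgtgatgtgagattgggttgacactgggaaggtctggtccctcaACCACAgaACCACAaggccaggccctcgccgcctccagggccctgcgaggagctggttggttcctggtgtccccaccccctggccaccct
This window held 2 RUNX matches, and its peak lies just outside the annotated span of the gene. Over the peaks inside the spans of the 7 genes, which leave this peak out, 9 of 45 mesoderm ATAC windows and 3 of 17 HPC windows held a RUNX match. Of all ATAC windows in these lists 17.6% and 23.5% did, so the shares were near the background.

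**Figure D2:**
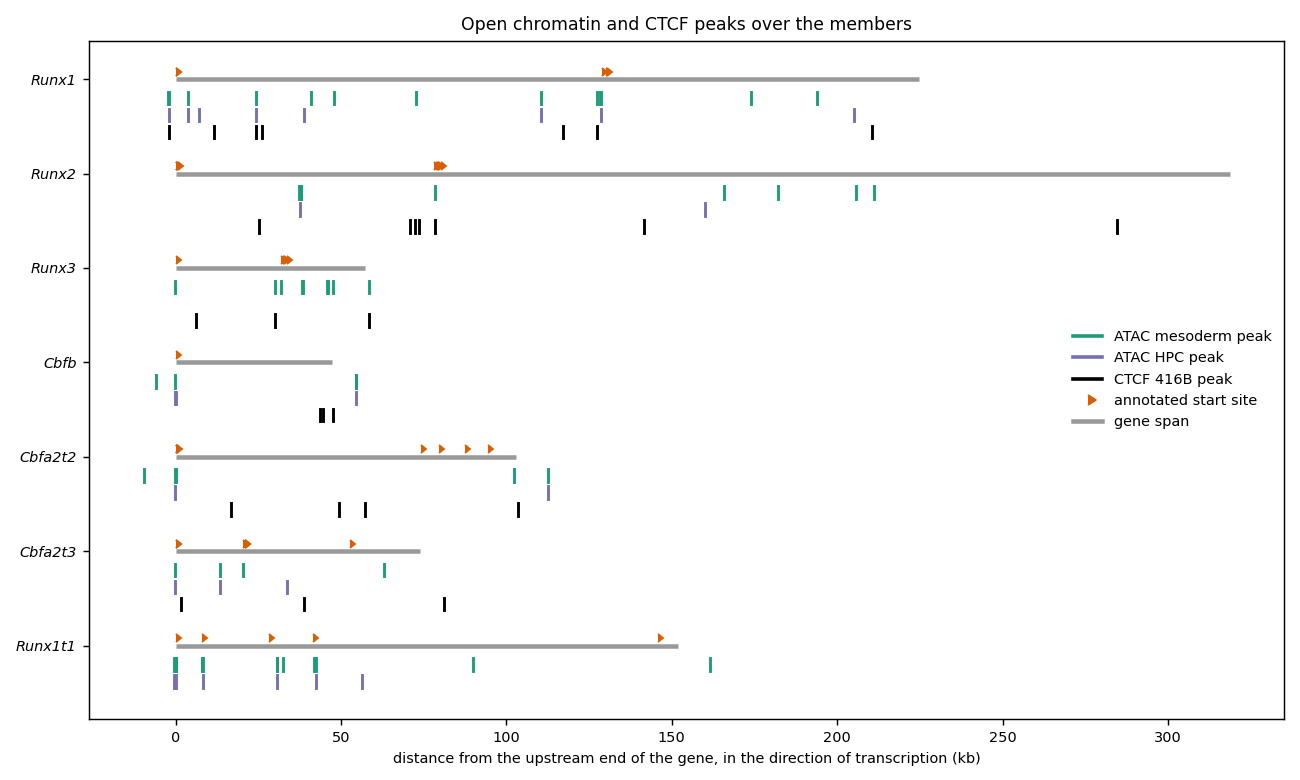
Positions of ATAC peaks (wild-type mesoderm and HPCs) and CTCF peaks (416B cells) along each of the 7 genes, in kb from the upstream end of the gene in the direction of transcription, with start sites marked. Runx3 and Cbfa2t2 show mesoderm ATAC peaks inside the gene span (7 and 2) and none inside it in HPCs, where the Cbfa2t2 peak at the start lies just outside, and Runx1t1 shows 0 CTCF peaks.

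The partner subunit Cbfb rose with Runx1 to mesoderm and then fell in HPCs, where Runx1 rose further. Cbfb was at 3.08 and 2.91 CPM in mESCs and rose to 6.68, 6.61 and 8.31 CPM in wild-type mesoderm of C6.1, C8.1 and B9.3 (log2 fold change 1.26 ± 0.29 SE, adjusted p = 0.0077 by edgeR). Its raw counts were 297 to 565 per mESC library and 55 to 143 in mesoderm, so this rise rests on the TMM scaling. In wild-type HPCs Cbfb fell to 2.66, 4.08, 3.26 and 1.92 CPM. The mesoderm values lay above those of both other stages without overlap, and the fall was called (log2 fold change -1.26 ± 0.25, adjusted p = 0.003 by edgeR). The rise was not called without either mESC library (adjusted p = 0.077 and 0.099), with the mESC libraries summed (0.058) or with all libraries in 1 fit (0.053).

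The order of Runx1 and Cbfb per kb was inverted between mesoderm and HPCs. The log2 ratio of Runx1 to Cbfb per kb was -4.03 and -4.51 in mESCs and -1.34, -1.02 and -3.29 in wild-type mesoderm, so Cbfb had more signal per kb than Runx1 in every wild-type library before HPCs. In wild-type HPCs the ratio was 2.73, 2.77, 2.55 and 2.95, so Runx1 had more. The means differed by 4.64 log2 units (2.75 ± 0.165, n = 4, against -1.88 ± 1.23, n = 3, SD), with an exact 2-sided permutation p of 0.0286, the smallest that 4 against 3 libraries can give. With B9.3-2 summed into its clone the exact permutation p was 0.1, and with the clones as replicate block it was 0.25, each the smallest those designs allow. Knockout clones showed the same inversion in their means, from -2.05 ± 1.14 to 3.60 ± 1.36 in P1-CTCF-KO (n = 3 and 3) and from -2.43 ± 1.06 to 2.87 ± 1.27 in P2-CTCF-KO (n = 3 and 5). Without D2.1 the P2-CTCF-KO HPC mean was 3.34, and without D10.1 it was 2.48. This ratio is of RNA signal over introns and exons, not of protein.

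Of the ETO corepressors, in CPM, Cbfa2t3 rose at both steps, Cbfa2t2 varied least and Runx1t1 rose at the first. Cbfa2t3 (minus strand, chr8:125149035-125223009) was at 0.0982 and 0.128 CPM in mESCs, at 3.40, 3.37 and 3.66 CPM in wild-type mesoderm and at 17.8, 24.5, 23.8 and 22.6 CPM in wild-type HPCs. Stages did not overlap, and the clones of a stage lay close together after TMM scaling. Raw counts of Cbfa2t3 ran from 13 to 18 in mESCs and from 28 to 63 in wild-type mesoderm. The size of the first rise thus rests on the TMM scaling. Its log2 fold change from mESCs to mesoderm was 4.93 ± 0.30 SE (30.5-fold, adjusted p = 1.4e-05 by edgeR), with the smallest p of the 12899 genes tested. To HPCs it was 2.67 ± 0.21 (6.36-fold, adjusted p = 1.5e-05), and 23 genes had a smaller p.

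Cbfa2t2 (Mtgr1), an ETO member known from embryonic stem cells and germ cells, was at 10.3 and 10.9 CPM in mESCs, at 7.16, 7.39 and 7.50 CPM in wild-type mesoderm and at 6.31, 6.83, 6.18 and 4.61 CPM in wild-type HPCs. Each stage lay below the one before it, but no step was called (log2 fold changes -0.54, adjusted p = 0.083, and -0.29, adjusted p = 0.28, by edgeR). Raw counts of Cbfa2t2 were 1116 to 1893 per mESC library and 59 to 129 in wild-type mesoderm. The small size of the first step thus rests on the TMM scaling. Runx1t1 (Eto), which is also expressed in neural and other tissues, was at 2.22 and 2.04 CPM in mESCs, at 3.76, 6.13 and 8.89 CPM in wild-type mesoderm and at 8.28, 7.33, 8.16 and 7.68 CPM in wild-type HPCs. The rise to mesoderm was called (log2 fold change 1.57 ± 0.31 SE, adjusted p = 0.0038), though not without the second mESC library (adjusted p = 0.061) or with both mESC libraries summed (0.052). Raw counts were 208 to 407 per mESC library and 31 to 153 in wild-type mesoderm, so this rise too rests on the TMM scaling. The HPC values lay within the mesoderm range (log2 fold change 0.30, adjusted p = 0.42).

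The makeup of the ETO family therefore passed from Cbfa2t2 to Cbfa2t3. Per kb of gene, Cbfa2t2 held 86.9% of the ETO signal in mESCs (mean of 2 technical replicates), 45.2% ± 4.67 (n = 3) in wild-type mesoderm and 14.3% ± 2.49 (n = 4) in HPCs. Cbfa2t3 held 32.7%, 28.8% and 27.4% in wild-type mesoderm and 67.4%, 74.3%, 73.9% and 76.2% in HPCs. These values did not overlap and differed by 43.3 percentage points (exact 2-sided permutation p = 0.0286, the smallest possible, and 0.1 with B9.3-2 summed into its clone). In P2-CTCF-KO mesoderm the share of Cbfa2t3 was 8.76%, 5.59% and 13.4% in D2.1, D10.1 and E9.1, below every wild-type and P1-CTCF-KO mesoderm library (22.4% to 32.7%), and Cbfa2t2 held 77.1% to 81.9%. In P2-CTCF-KO HPCs the share of Cbfa2t3 was 67.0% to 84.2%, which overlapped the wild-type range.

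**Figure D3:**
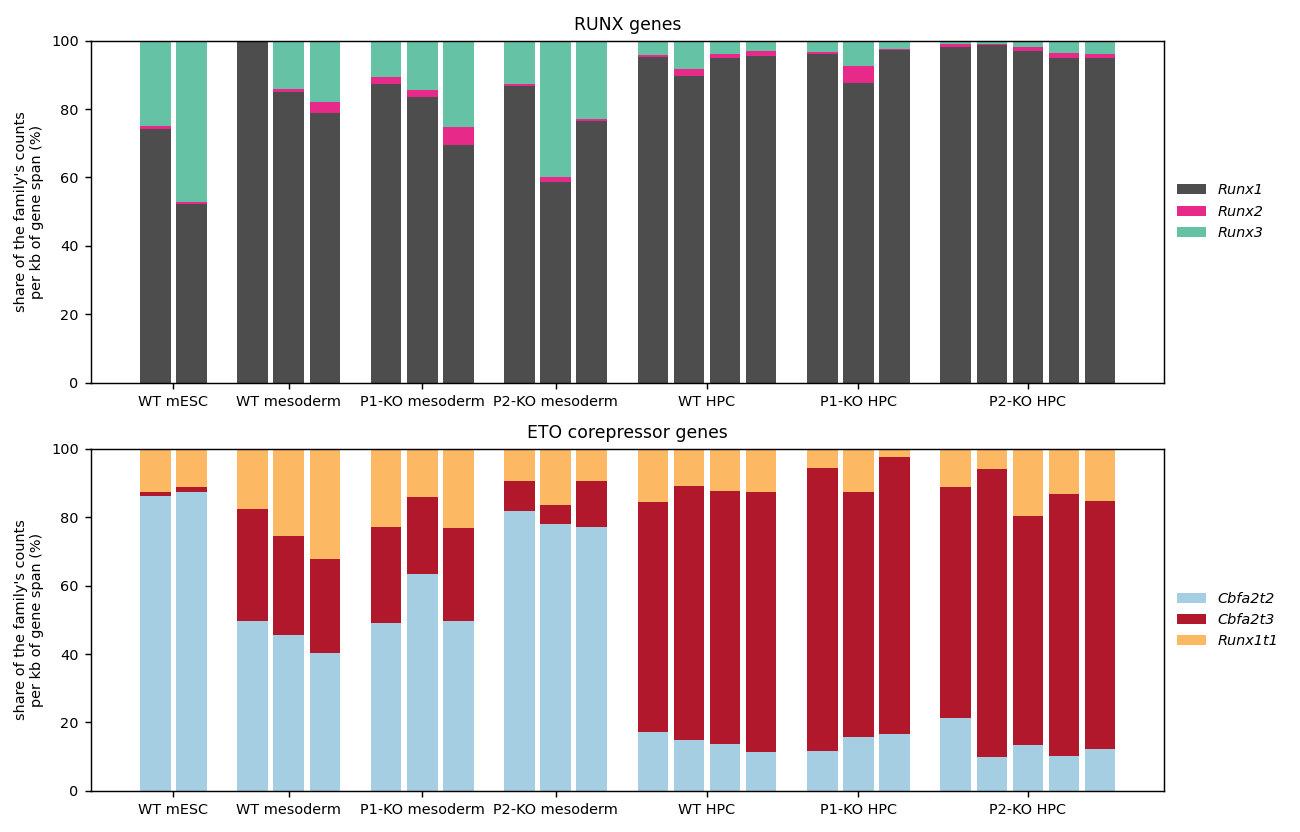
Shares of the RUNX family signal (Runx1, Runx2, Runx3) and of the ETO family signal (Cbfa2t2, Cbfa2t3, Runx1t1) per kb of gene in percent, 1 stacked bar per library. Runx1 fills most of each mesoderm and HPC bar, and Cbfa2t3 grows from at most 32.7% in mesoderm to at least 67.0% in HPCs.

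Because Cbfa2t3 had the smallest p of the 7 genes at both steps, the sequence at its open promoter in HPCs is shown. The ATAC peak is centred at -120 bp from its distal start, and the 200-base window is on the minus strand of mm9, with capitals for the RUNX motif as above.
Cbfa2t3 upstream of the distal start, chr8:125223030-125223229: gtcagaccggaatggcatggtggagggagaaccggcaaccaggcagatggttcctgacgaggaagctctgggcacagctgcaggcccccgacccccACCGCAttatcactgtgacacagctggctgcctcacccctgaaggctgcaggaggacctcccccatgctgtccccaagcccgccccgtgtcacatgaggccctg
The window held 1 match (TGCGGT, here read on the other strand). Its peak lies just outside the annotated span, so it is not among the 17 HPC windows counted above. A CTCF peak of 416B cells was centred 1463 bp downstream of the nearest Cbfa2t3 start, inside the gene. Inside the gene spans Cbfa2t3 had 4 ATAC peaks in mesoderm and 2 in HPCs, Cbfa2t2 2 and 0, and Runx1t1 11 and 5 with no CTCF peak. The HPC peaks at the upstream starts of Cbfa2t3 and Cbfa2t2 lie just outside these spans and are not counted.

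In order of level per kb, mESCs had Cbfa2t2 (0.103 CPM per kb), Cbfb (0.0634) and Runx1t1 (0.014) first, and Runx3 and Cbfa2t3 overlapped near the bottom. Wild-type mesoderm had Cbfb (0.152 CPM per kb) above Cbfa2t2 (0.0715), followed by Runx1 (0.0477), Cbfa2t3 (0.047) and Runx1t1 (0.0413), whose libraries overlapped. Wild-type HPCs had Runx1 (0.434 CPM per kb) above Cbfa2t3 (0.3), with both clear of the rest. Below them Cbfb (0.063), Cbfa2t2 (0.0582), Runx1t1 (0.0518), Runx3 (0.025) and Runx2 (0.00652) each overlapped the next. In HPCs of either knockout the libraries of Runx1 and Cbfa2t3 overlapped.

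Between genotypes, Cbfa2t3 was lower in P2-CTCF-KO mesoderm than in wild type. Runx2 and Runx3 had too few counts in mesoderm to be tested, so 5 of the 7 genes entered the fit of 8778 genes. In P2-CTCF-KO against wild-type mesoderm 1 of 5 was called, lower, where 0.0342% of all genes (3 genes) were called. Cbfa2t3 was at 0.469, 0.344 and 0.666 CPM in P2-CTCF-KO mesoderm of D2.1, D10.1 and E9.1 (5, 5 and 9 counts), against 3.40, 3.37 and 3.66 CPM in wild type (28, 56 and 63 counts). The groups were far apart and every knockout clone was low. The log2 fold change was -2.78 ± 0.31 SE (0.146-fold, adjusted p = 0.022 by edgeR), with the smallest p of all genes tested. The study had already reported Cbfa2t3 as lower in P2-CTCF-KO mesoderm, so this is not an independent finding. The other genes called were Ikzf2, a zinc finger factor (-2.52 ± 0.31, adjusted p = 0.026), and Prkar2b, a regulatory subunit of protein kinase A (-2.30 ± 0.31, adjusted p = 0.037), both named after their values were seen.

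The size of the Cbfa2t3 difference was stable and its adjusted p was not. Over 16 alternatives the log2 fold change ran from -3.07 to -2.56 and the adjusted p from 5.8e-06 to 0.14. The call was kept in 10 and lost in 6, each of them a fit without 1 library: C8.1 of wild type (adjusted p = 0.14), E7.1 (0.059) or E9.1 (0.055) of P1-CTCF-KO, and D2.1 (0.14), D10.1 (0.11) or E9.1 (0.06) of P2-CTCF-KO.

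Runx1t1 was next among the 7 genes in P2-CTCF-KO mesoderm. It was at 1.03, 2.07 and 0.963 CPM in D2.1, D10.1 and E9.1, below the lowest wild-type library (3.76 CPM). The log2 fold change of -2.18 ± 0.42 SE was not called (adjusted p = 0.1 by edgeR), but was called by DESeq2 (adjusted p = 0.00094), with no filter on low counts (0.00019) and without C6.1 of wild type (0.028). Cbfb at 5.34, 5.37 and 5.26 CPM and Cbfa2t2 at 6.1, 6.68 and 5.33 CPM in P2-CTCF-KO also lay below every wild-type mesoderm library, with log2 fold changes of -0.41 (adjusted p = 0.33) and -0.26 (adjusted p = 0.45). Runx1, at 7.60, 2.00 and 6.74 CPM, overlapped wild type (-0.96 ± 0.58, adjusted p = 0.45). In all, 2 of the 5 genes had an unadjusted p under 0.05, as did 1409 of all genes, and DESeq2 called 2 of the 5 and 169 of all genes.

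In P1-CTCF-KO against wild-type mesoderm 0 of 5 genes were called by edgeR or DESeq2, where 0% of all genes were called, and 0 of the 5 and 166 of all genes had an unadjusted p under 0.05. Cbfa2t3 was at 2.98, 1.85 and 2.76 CPM in E7.1, E7.2 and E9.1, slightly below wild type (log2 fold change -0.47, adjusted p = 1 by edgeR). Runx1t1, at 4.90, 2.39 and 4.79 CPM, overlapped wild type (-0.67, adjusted p = 1). The other tested genes had log2 fold changes of -0.39 (Runx1), -0.18 (Cbfb) and -0.03 (Cbfa2t2), each with an adjusted p of 1.

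The knockouts were also set against each other. In P2-CTCF-KO against P1-CTCF-KO mesoderm 0 of 5 genes were called by edgeR, where 0% of all genes were called. 2 of the 5 and 987 of all genes had an unadjusted p under 0.05, and DESeq2 called 1 of the 5 and 93 of all genes. Cbfa2t3 had the smallest p of all genes (log2 fold change -2.31 ± 0.31 SE, adjusted p = 0.093 by edgeR) and was called in 5 of 16 alternatives, among them without B9.3 of wild type (0.046) or E7.2 of P1-CTCF-KO (0.038). Runx1t1 had a log2 fold change of -1.51 (adjusted p = 0.24). These comparisons share libraries, so their values are not independent. The untested Runx2 had 5, 10 and 6 counts in P1-CTCF-KO mesoderm and 1, 1 and 1 in P2-CTCF-KO, around the 0, 4 and 4 of wild type.

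Markers of blood and endothelial cells, like Cbfa2t3, were lower in P2-CTCF-KO mesoderm than in the other genotypes. The 6 hematopoietic progenitor markers summed to 7.41 to 22.5 CPM in wild-type, 8.72 to 20 CPM in P1-CTCF-KO and 1.59 to 3.92 CPM in P2-CTCF-KO mesoderm, where 1 of 6, Spi1, was at 0 in all libraries. The 6 endothelial markers summed to 4.86 to 80.9, 7.49 to 49.7 and 1.41 to 2.96 CPM, where 1 of 6, Emcn, was at 0 in P2-CTCF-KO. The 6 mesoderm markers went the other way, with 31.8 to 53.7, 45.1 to 51.9 and 63.7 to 77.6 CPM. By edgeR 0 genes of the marker lists were called between genotypes. By DESeq2 8 were called in P2-CTCF-KO against wild-type mesoderm. Of the 6 endothelial markers Tek, Flt1, Cdh5 and Pecam1 were lower, of the 6 progenitor markers Kit was lower, and of the 6 mesoderm markers Eomes, Pdgfra and the Brachyury gene were higher, and the same 8 genes were called against P1-CTCF-KO. Kdr, which encodes the sorting marker Flk1, was at 27.2 CPM in wild type and 26.7 CPM in P2-CTCF-KO on average. The part of these cells in the Cbfa2t3 difference was not tested, and in bulk libraries fewer cells of a type and less RNA per cell cannot be told apart.

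In HPCs the genotypes overlapped in Cbfa2t3. It was at 15.2, 25.2, 17.2, 20.9 and 20.5 CPM in P2-CTCF-KO HPCs of D2.1, D10.1, D10.1-2, D2.1-2 and E9.1, and at 29.8, 21 and 25.3 CPM in P1-CTCF-KO HPCs of E7.1, E7.2 and E9.1, against 17.8 to 24.5 CPM in wild type. Both knockouts overlapped wild type (log2 fold change of P2-CTCF-KO -0.15 ± 0.19 SE). In the 3 comparisons of HPC genotypes 0 of 7 genes were called by edgeR or by DESeq2, where 0% of the 7422 genes tested were called in P1-CTCF-KO against wild type, 0% in P2-CTCF-KO against wild type and 0% in P2-CTCF-KO against P1-CTCF-KO. At an unadjusted p under 0.05 these held 0, 1 and 2 of the 7 genes, and 260, 145 and 650 of all genes. Without D2.1 the counts of calls over all genes were 0 as well. Without D10.1, 0 of the 7 genes were called, but in P2-CTCF-KO against P1-CTCF-KO HPCs 259 of all genes were.

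The gene of the 7 nearest to a call in HPCs was Runx3. It was at 0.140, 0.387, 0.384, 0.422 and 0.652 CPM in P2-CTCF-KO HPCs, against 0.640 to 3.17 CPM in wild type and 1.42, 1.68 and 0.887 CPM in P1-CTCF-KO. P2-CTCF-KO libraries touched the wild-type range only at E9.1 and lay below P1-CTCF-KO. Against wild type the log2 fold change was -1.89 ± 0.51 SE with the smallest p of all genes tested by edgeR, but with an adjusted p of 1 it was not called. The value was -1.65 without D2.1 and -1.9 without D10.1. Against P1-CTCF-KO it was -1.76 (adjusted p = 0.53 by edgeR). Runx2 ran from 0.488 to 1.35 CPM in P2-CTCF-KO and was at 1.83, 6.60 and 0.760 CPM in P1-CTCF-KO, where E7.2 was far above the other clones. Its log2 fold changes were -1.24 (adjusted p = 1) against wild type and -1.81 (adjusted p = 0.53) against P1-CTCF-KO.

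Runx1t1 varied widely between P1-CTCF-KO HPC clones, at 4.06, 7.60 and 1.52 CPM in E7.1, E7.2 and E9.1. These values lay around or below 7.33 to 8.28 CPM in wild type (log2 fold change -0.81, adjusted p = 0.91 by edgeR). In P2-CTCF-KO HPCs it ran from 3.58 to 10.3 CPM (-0.15). Cbfb ran from 0.811 to 3.02 CPM in P1-CTCF-KO and from 0.978 to 5.44 CPM in P2-CTCF-KO HPCs, where the highest value was that of D2.1. Cbfa2t2 stayed between 3.91 and 7.22 CPM in both.

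**Figure D4:**
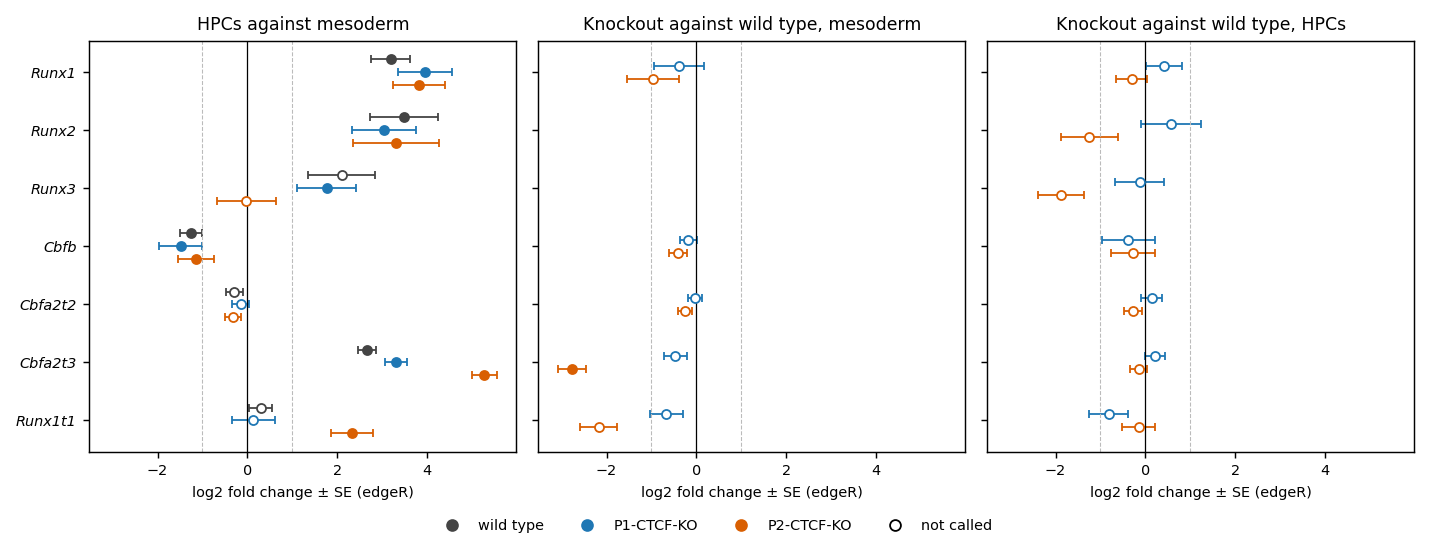
Log2 fold changes of the 7 genes with their SE, in 3 panels: HPCs against mesoderm within each genotype, knockouts against wild type in mesoderm and knockouts against wild type in HPCs. Filled points passed the call rule and dashed lines mark a log2 fold change of 1 either way. Cbfa2t3 of P2-CTCF-KO stands at 5.28 in the first panel and at -2.78 in the second, and no point in the third is filled. Runx2 and Runx3 were not tested in mesoderm.

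Within each knockout Runx1 and Cbfa2t3 rose and Cbfb fell from mesoderm to HPCs, the directions called in wild type. From mesoderm to HPCs 5 of 7 genes were called in P1-CTCF-KO, where 32.7% of 9170 genes were called, and 5 of 7 in P2-CTCF-KO, where 28.2% were called. In each of them 4 rose and 1, Cbfb, fell. Cbfa2t3 had the smallest p of all genes in both, with log2 fold changes of 3.32 ± 0.25 SE (adjusted p = 1.4e-07 by edgeR) in P1-CTCF-KO and 5.28 ± 0.28 (38.8-fold, adjusted p = 7.4e-10) in P2-CTCF-KO. Runx1 rose by 3.96 (adjusted p = 6.6e-05) and 3.83 (6.5e-05) on the log2 scale.

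The other calls within knockouts rested on fewer reads. Runx2 rose in P1-CTCF-KO (log2 fold change 3.05, adjusted p = 0.0025 by edgeR), but was not called without the E7.2 HPC library (1.74, adjusted p = 0.08). In P2-CTCF-KO it rose as well (3.31, adjusted p = 0.01), from 3 counts in all mesoderm libraries to 46 in HPCs, a ratio of 11 (95% exact interval 3.55 to 55.5, counting error only). Runx3 rose in P1-CTCF-KO (1.77, adjusted p = 0.039, called in 23 of 29 alternatives but not with no filter, without any 1 of the mesoderm libraries or without the E7.1 or E7.2 HPC library), whereas in P2-CTCF-KO its log2 fold change was -0.03 (0.22 without D2.1). Cbfb fell by 1.48 on the log2 scale in P1-CTCF-KO (adjusted p = 0.02) and by 1.15 in P2-CTCF-KO (adjusted p = 0.032). The latter fall was 1.76 without the D2.1 library. The Cbfb calls were kept in 26 and 23 of 29 alternatives. They were lost in P1-CTCF-KO without E7.1 at either stage or E9.1 mesoderm, and in P2-CTCF-KO without any 1 of the mesoderm libraries or without D10.1, D2.1-2 or E9.1 HPCs. Runx1t1 rose in P2-CTCF-KO (2.33 ± 0.47 SE, adjusted p = 0.00085, called in 29 of 29 alternatives), and in P1-CTCF-KO its log2 fold change was 0.14.

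The difference between these rises was tested directly, as the log2 change from mesoderm to HPCs in a knockout minus that in wild type. For P2-CTCF-KO 1 of 7 genes was called, where 0.0218% of all genes (2 of 9170) were called. Cbfa2t3 rose by 2.64 ± 0.34 SE more on the log2 scale than in wild type (adjusted p = 0.0021 by edgeR), the smallest p of all genes, and it was called in 29 of 29 alternatives (2.39 to 2.88, adjusted p from 5.7e-05 to 0.028). The other gene called was Ikzf2 (2.54 ± 0.38, adjusted p = 0.0079). Runx1t1 had a difference of 2.05 ± 0.62 (adjusted p = 0.34) and Runx3 of -2.09 ± 0.93 (adjusted p = 0.65). For P1-CTCF-KO 0 of 7 genes were called by edgeR or DESeq2, where 0% of all genes were called, and 1 of the 7, Cbfa2t3 (0.68), and 306 of all genes had an unadjusted p under 0.05. The P2-CTCF-KO mesoderm libraries enter both this difference and the mesoderm comparison.

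Genes that work with these 7 were described from lists. Of the DNA-binding partners of ETO corepressors 9 of 10 were tested in wild type. From mESCs to mesoderm 6 of them rose and 0 fell, with Tal1, a master regulator of blood (log2 fold change 4.48, adjusted p = 1.8e-05 by edgeR), Zbtb16 (3.72) and the E protein Tcf12 (2.32) the strongest by p. The list's median was 2.32, against -0.18 over all genes. At the HPC step 4 rose and 1 fell. Tal1 went from 2.77 to 10.5 CPM on average, Gfi1b, a repressor of erythroid and megakaryocytic cells, from 0.242 to 6.42 CPM and Zbtb16 from 0.878 to 3.98 CPM, whereas the E protein Tcf4 fell from 29.3 to 9.82 CPM. The median was 0.57, against -0.011 over all genes. Of the 10 partners, 6 passed the filter on low counts among mesoderm libraries and 8 among HPC libraries. Gfi1b passed among HPC libraries but not among mesoderm libraries, so its rise is nearly fixed in advance. The calls and median of this step carry less weight for that reason.

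The corepressors that ETO and RUNX proteins recruit changed in few members. Of the 10 genes of the NCoR, SIN3 and HDAC complexes, 1 rose from mESCs to mesoderm, Tbl1x (log2 fold change 1.11, adjusted p = 0.019), with a median of -0.0989. At the HPC step Ncor1, a scaffold of these complexes, rose from 16.9 to 53.1 CPM (1.66, adjusted p = 0.00021 by edgeR), and the median of the list was 0.0248. Ncor1 was called higher at this step in both knockouts as well. Of the 6 Groucho corepressors, which bind the C terminus of RUNX proteins, 3 were tested. Tle3 rose to mesoderm (1.46, adjusted p = 0.0064) and fell again to HPCs (-1.95, adjusted p = 0.00032), and Tle4 fell to mesoderm (-1.77, adjusted p = 0.0012). The list medians were -1.13 and -0.697.

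Of 10 RUNX coactivators and modifying enzymes 3 rose from mESCs to mesoderm, namely the kinase Hipk2 (log2 fold change 2.47), the histone methyltransferase Suv39h1 (1.74) and the arginine methyltransferase Carm1 (1.15), with a median of 0.877. At the HPC step 2 rose and 3 fell. Hipk2 rose from 15.9 to 126 CPM and Hipk1 from 10.2 to 34.8 CPM, while Yap1, a Hippo pathway coactivator, fell from 18.1 to 1.46 CPM, and the median was -0.453.

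Genes known as targets of RUNX1 and RUNX2 formed separate lists. Of 14 RUNX1 target genes in blood 11 were tested in wild type. From mesoderm to HPCs 8 rose and 0 fell, with a median of 4.88 against -0.011 over all genes. Of the 14, 3 passed the filter on low counts among mesoderm libraries and 9 among HPC libraries. Many thus entered mainly through HPCs, where a rise is nearly fixed in advance, so these numbers carry little weight. Itga2b, which encodes the sorting marker CD41, rose from 0.911 to 28.4 CPM, and the kinase gene Prkcq from 0.117 to 25.2 CPM. As Itga2b defines the sorted cells its rise is not independent of the sort. From mESCs to mesoderm 4 rose and 0 fell, including Itga2b (log2 fold change 4.44), Prkcq (0.00273 to 0.117 CPM) and Gfi1b (0 to 0.242 CPM). The median of 1.96 became 2.76 with genes at 0 counts in a stage set to a floor of 3 counts. Of 10 RUNX2 target genes in bone 4 were tested, and Col1a1, a collagen of many mesenchymal cells, rose to mesoderm from 0.225 to 18.9 CPM, where Spp1 was called lower, with 0 counts in mesoderm. To HPCs Alpl, an alkaline phosphatase gene, fell from 1.61 to 0.0854 CPM, and the rise of Runx2 signal in HPCs was not accompanied by a called rise among the 4 tested bone genes.

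In the knockouts the RUNX1 targets rose from mesoderm to HPCs as well, with 7 of 9 tested genes called in P1-CTCF-KO and 9 of 9 in P2-CTCF-KO. The same limit applies, since the filter lets in genes through the stage where they are high. By edgeR 0 genes of these lists were called between genotypes at either stage. By DESeq2 Kit was called lower in P2-CTCF-KO mesoderm against both other genotypes and Col1a1 lower against P1-CTCF-KO. In P2-CTCF-KO against wild-type mesoderm the median log2 fold change was -1.85 for the 3 RUNX1 targets tested and -0.618 for the 6 ETO partners tested, against 0.0087 over all genes.

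Across the 23 libraries the genes most like each of the 7 were listed by Pearson correlation of log2 CPM, as a description in which libraries share stage, depth and clone. Cbfa2t3 was most like Gypc, a glycophorin of the red cell membrane (r = 0.98), Nol4l (0.974) and Ptpre (0.974). Runx1 was most like Sppl3 (0.967), Herc1 (0.964) and Rap1a (0.963). Cbfb was most like the BMP receptor gene Bmpr2 (0.923), Pcdhga11 (0.913) and Rab11fip3 (0.91). For Runx2, Runx3, Cbfa2t2 and Runx1t1 the highest values were 0.908 (Pip5k1a), 0.819 (Dctn4), 0.849 (G3bp2) and 0.8 (Abcg2).

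Among the 7 genes, Runx1 and Cbfa2t3 followed each other between stages (r = 0.947 over 23 libraries) but less so within groups (0.296 after the group means were removed). Runx2 and Runx3 went together in both ways (0.822 and 0.714), as high values of both in C8.1 HPCs show, and shared low counts. Cbfa2t2 and Cbfa2t3 went in opposite directions (-0.624 and -0.503), and Cbfb and Cbfa2t2 together (0.518 and 0.711).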

How the data were processed

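The authors deposited read counts of 23 poly(A)-minus libraries without normalization, after mapping to mm9 with STAR, removal of PCR duplicates and counting over exons and introns with featureCounts. The annotation and strand setting of the counting are not given in the sources used here. All value columns were matched to samples (0 left unmatched). The authors called peaks with MACS2 on merged reads (ATAC-seq, 4 mesoderm and 2 HPC libraries) or on 2 merged CTCF ChIP-seq libraries against input, and the deposited lists give start and end only. The study's methods name a reporter line for ATAC-seq, which holds an extra copy of an intronic Runx1 enhancer that can add reads there, and the labels name E14-TG2a. RNA-seq of 416B cells was not analysed here.

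Tests ran in edgeR 4.0.16 under R 4.3.3 (TMM, filterByExpr with a minimum count of 10, quasi-likelihood test). Wild-type stages were fitted on 9 libraries, genotypes on 9 mesoderm or 12 HPC libraries and the stage changes of knockouts on 21. Calls needed both an adjusted p under 0.05 and a log2 fold change beyond 1 in either direction. SEs are the log2 fold change divided by the root of F. Correlations used log2 CPM with a prior count of 2. The ratio of Runx1 to Cbfb added 1 count to each. Motifs were sought in 200-base windows around peak centres, of the genome NCBIM37 (mm9). Entries of several loci or over 2.5 Mb cover Cbfb, Cbfa2t3 and Runx1t1, which kept counts of their own.

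The members and gene lists were chosen with earlier results of these data known. All 7 members are named in each comparison, and of each list at most 3 called genes, taken by adjusted p, plus the 3 genes most like each member. Some genes of the lists are not reported here. The same clone was sampled in mesoderm and HPCs, which pairs the libraries by clone. Deviations from the group means correlated from -0.062 to 0.2 over 5000 genes in 9 clones. The reported fits have no block, as in the study. Libraries of a group differed beyond sampling noise (chi-square per gene 2.24 to 32.2), so none was treated as a duplicate. Alternatives were DESeq2 1.42.0 (the tool the study used), other size factors, no filter, no fold limit, all libraries in 1 fit, ribosomal and multi-locus entries left out, repeat libraries summed, the clone as a block, each library left out and, for peaks, other windows, overlaps and widths. DESeq2 calls of list genes and means without D2.1 or D10.1 were added after the data were seen. The fits were tested on simulated data. Intervals and floors cover counting error only.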

Additional observations from a re-analysis of the deposited data

Results flagged for a closer look

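Among wild-type HPCs the library of C8.1 stood far from the others in the RUNX paralogs. Its Runx3 level was 3.17 CPM, where the next library had 0.986 CPM, and its Runx1 share of the RUNX signal per kb was 89.6%, where the next had 95%. The gap between C8.1 and its neighbour passed Dixon's limit for 4 libraries in both measures. In all, 28 groups of values were examined in this way and 2 passed, and chance alone marks about 1 in 20. The megakaryocyte markers of C8.1 summed to 126 CPM and its erythroid markers to 54.7 CPM, inside the range of the other wild-type HPC libraries. Their part in the Runx3 value was not tested.

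The rise of Cbfa2t3 from mesoderm to HPCs differed between P2-CTCF-KO and wild type by 2.64 on the log2 scale in a test of the difference itself (adjusted p = 0.0021 by edgeR). All 3 P2-CTCF-KO mesoderm libraries lay below the wild-type ones, whereas the HPC libraries overlapped.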

How the results depend on the processing

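Of 1676 values of single genes under alternatives, 1626 kept their side of the threshold, 28 lost a call and 22 gained one. Of values called in the main or the alternative fit 0 changed direction. Changes of sign among values called in neither were not counted. Of the 7 genes, 2 were called from mESCs to mesoderm with repeat libraries summed (2 to 5 with a library left out). In P2-CTCF-KO against wild-type mesoderm 2 were called by DESeq2 and 2 with no filter (0 to 2 with a library left out), and against P1-CTCF-KO 1 with all 23 libraries in 1 fit, 1 by DESeq2 and 2 with no filter (0 to 1). In P1-CTCF-KO HPCs against mesoderm 3 to 5 were called with a library left out, with 3 without E7.1 or E7.2 HPCs or without E7.1 or E9.1 mesoderm. Calls over all genes in P2-CTCF-KO mesoderm rose from 3 to 18 with all libraries in 1 fit, 169 by DESeq2 and 431 with no filter against wild type, and from 0 to 5, 93 and 267 against P1-CTCF-KO. With a library left out they ran from 0 to 127 (without C6.1) against wild type, from 0 to 37 (without wild-type B9.3) against P1-CTCF-KO and, in HPCs against P1-CTCF-KO, from 0 to 259 (without D10.1). For the stage change of P2-CTCF-KO minus that of wild type they rose from 2 to 36 by DESeq2, and from mESCs to mesoderm they fell from 3146 to 1443 with repeat libraries summed and to 1091 without either mESC library. The cause was not tested.

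With the clone as a replicate block 5 of the 7 genes were called in wild-type HPCs against mesoderm (Runx3 added), 5 and 5 in the knockouts, and 0 and 1 for the differences between stage changes, and it changed no other call. The Cbfa2t3 share differed by 42.5 points with repeat libraries summed (exact permutation p = 0.1) and 42.5 with the replicate block by clone (exact sign permutation p = 0.25), and by 42.2 to 45.1 with a library left out. The Runx1 share differed by 1.42 to 12 points with a library left out. The ratio of Runx1 to Cbfb differed by 4.62 summed, 4.62 with the replicate block and 3.93 to 5.06 with a library left out. With fewer units no permutation can reach the threshold. CTCF peaks at start sites were found for 4 of 7 genes within 5 kb and for 0 of 7 among the wider peaks. Depth limits Runx2 and Runx3, which had at most 59 and 38 counts in a library.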
